A study of Mus musculus with 18 samples.

Results

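The nuclear genes of oxidative phosphorylation were examined as the accessible regions at their ends. A region was taken when it lay within 1 kb of an end of a protein-coding gene whose symbol begins Nduf, Uqcr, Atp5 or Cox4 to Cox8, or is Sdha, Sdhb, Sdhc, Sdhd or Cycs, and regions of mitochondrial DNA (chrM) were left out. The rule found 112 of 27396 regions, at 81 of the 97 genes that meet it. Of these regions, 109 held enough counts to be tested, and the 3 that did not were short regions at Ndufb3, Sdhd and Uqcr10, at genes with another tested region. The members were also set beside the 12274 other regions within 1 kb of an end of a protein-coding gene, called other gene-end regions here.

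ATAC-seq, in which a transposase cuts and tags open DNA, was run on sections of fresh frozen spleen from wild-type C57BL/6J mice, and stained B cells or T cells were then cut out by laser capture. Of the 18 libraries, 5 came from B patches and 5 from T patches, each pooled from larger captured areas with about 1000 nuclei in all, and 4 from B and 4 from T captures of 100 single nuclei. All groups share strain, genotype, tissue and freezing. No source used here gives the age or sex of the mice, libraries of a group are technical replicates, and none is tied to a mouse, so p-values measure only the spread between these libraries. Nuclear counts (those outside chrM) ran from 1722193 to 6136842 per library in patches and from 241786 to 715288 at 100 nuclei. The summed counts at 15 B cell marker genes were 1812 to 2431 nuclear CPM (a library's counts brought to a fixed total, over nuclear counts only) in B patches and 359 to 601 in T patches, and those at 17 T cell marker genes with a region were 746 to 1205 and 1814 to 2567. The marker sums did not overlap between B and T patches, and both patches held markers of the other cell type, so a change in the mix of captured cells and a change of accessibility within a cell cannot be told apart. The sums at 2 stroma and endothelium markers with a region, of 8, did not overlap either, at 124 to 178 nuclear CPM in B and 185 to 303 in T patches, and their part in the results was not tested. At 100 nuclei the sums at B markers were 1475 to 3761 nuclear CPM in B and 107.5 to 1040 in T libraries. Those at T markers were 290 to 1112.5 in B and 1818 to 2713 in T libraries, so both groups held markers of the other type. There, 5 of the 17 T markers (Cd3g, Cd6, Cd8a, Cd8b1 and Bcl11b) were at 0 in every B library, and the B markers Cr2 and Spib were at 0 in every T library. Only 27.8% to 40.0% of nuclear regions were read in these B libraries and 12.0% to 38.8% in the T libraries. A marker at 0 therefore does not show that the other cells were absent.

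Oxidative phosphorylation makes ATP in the inner mitochondrial membrane. Complex I takes electrons from NADH and complex II takes them from succinate, complex III passes them on to cytochrome c, and complex IV hands them to oxygen, while the proton gradient that results drives the ATP synthase, complex V. Most subunits are encoded in the nucleus and a small set in mitochondrial DNA, so the complexes are built from the products of both genomes. The nuclear genes are active in nearly all cells and are known for promoters with sites for NRF1, for ETS factors such as GABPA, and for YY1, and lymphocytes expand this machinery when they are activated.

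Complex I had 52 regions at 35 of 39 genes. Complex II had 6 at 4 of 4, complex III 12 at 8 of 8, complex IV 11 at 11 of 20 and complex V 19 at 15 of 17. The cytochrome c gene Cycs had 1 region, and assembly factors named Nduf, which help to build complex I but are not part of it, had 11 at 7 of 8 genes. Ndufa4 was counted with complex IV, in which its product is found. A region at its ends was missing for 16 genes. Among them were the isoforms Cox4i2, Cox6a2, Cox7b2, Cox8b and Cox8c, which are known from particular tissues such as lung, muscle and testis, and also Cox5a, Cox7a2, Atp5d, Atp5g1 and Ndufa6, whose products are general subunits. Most genes (55) had 1 region, 22 had 2, 3 had 3, and Ndufa13 had 4. By the start sites of the RefSeq promoter table, which covers 97 of the members, 95 lay within 1 kb of the start of their gene. Of the members, 68 covered it, and 2 lay farther than 1 kb from it.

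The promoters of 6 genes are shown as examples of the motif types that were counted, with each complex and cytochrome c represented. Each is the 150 bases before the start site, 5′ to 3′ along the gene's strand, from RefSeq on GRCm38.p6, and capitals mark exact matches, on either strand, to NRF1 (CGCANGCG), the ETS family (CCGGAAG) or YY1 (AANATGGC). They are Cycs at chr6:50566570-50566719 (minus strand), Sdha, the flavoprotein of complex II, at chr13:74350241-74350390 (minus), Atp5j, coupling factor 6 of the ATP synthase, at chr16:84834977-84835126 (minus), Cox6a1 of complex IV at chr5:115348959-115349108 (minus), Uqcrh, the hinge protein of complex III, at chr4:116075071-116075220 (minus) and Ndufb5 of complex I at chr3:32736913-32737062 (plus).
Cycs: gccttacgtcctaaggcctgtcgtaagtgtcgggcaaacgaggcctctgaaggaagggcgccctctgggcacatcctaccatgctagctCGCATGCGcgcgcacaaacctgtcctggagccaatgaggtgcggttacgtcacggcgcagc
Sdha: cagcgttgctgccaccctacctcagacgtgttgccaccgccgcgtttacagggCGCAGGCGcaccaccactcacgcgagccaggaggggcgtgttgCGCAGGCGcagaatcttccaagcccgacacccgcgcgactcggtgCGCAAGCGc
Atp5j: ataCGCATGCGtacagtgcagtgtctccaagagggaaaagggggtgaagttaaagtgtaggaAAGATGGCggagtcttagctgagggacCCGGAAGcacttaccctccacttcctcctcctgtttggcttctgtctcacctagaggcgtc
Cox6a1: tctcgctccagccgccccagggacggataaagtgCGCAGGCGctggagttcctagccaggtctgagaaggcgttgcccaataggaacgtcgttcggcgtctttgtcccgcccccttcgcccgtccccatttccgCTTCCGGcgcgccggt
Uqcrh: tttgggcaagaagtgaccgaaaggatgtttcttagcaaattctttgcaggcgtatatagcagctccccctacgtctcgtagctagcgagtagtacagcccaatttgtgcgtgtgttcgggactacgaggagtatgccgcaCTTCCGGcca
Ndufb5: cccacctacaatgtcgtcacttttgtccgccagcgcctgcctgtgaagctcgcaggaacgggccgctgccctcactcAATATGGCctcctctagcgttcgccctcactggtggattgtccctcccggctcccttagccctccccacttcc
The Cycs promoter held 1 NRF1 match in this stretch and the Sdha promoter 3 of them. In Atp5j an NRF1, a YY1 and an ETS match followed each other, Cox6a1 held an NRF1 and an ETS match, Uqcrh an ETS match next to the start, and Ndufb5 a YY1 match. The 6 promoters were shown for their matches and do not stand for their complexes. At other member genes, such as Ndufa1, Cox7c and Atp5b, the same stretch held no match to NRF1, ETS or YY1. Nor did it at another start site of Atp5j.

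The same motifs were counted in the whole promoter window of the table, 250 bases before to 50 after the start, for the 68 member genes whose window was open, meaning that a region overlapped it. NRF1 matched in 28 of the 68 (41.2%), against 22.3% of 7683 other genes with an open promoter and 12.5% of all 17491 genes. YY1 matched in 19 (27.9%), against 10.96% and 7.46%. The ETS family matched in 18 (26.5%), close to the 23.2% of other open promoters, while the SP family motif GGGCGG matched in 30 (44.1%), below their 72.9%. At least 1 of NRF1, ETS and YY1 was present in 51 of the 68 promoters (75%), against 46.4% of other open ones and 27.7% of all. The median GC content of the windows was 59.2% in member genes and 62.3% in other open promoters. Matches of different motifs were counted separately and may overlap. These shares are descriptions without a test, and a match is not a bound site.

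**Figure D1:**
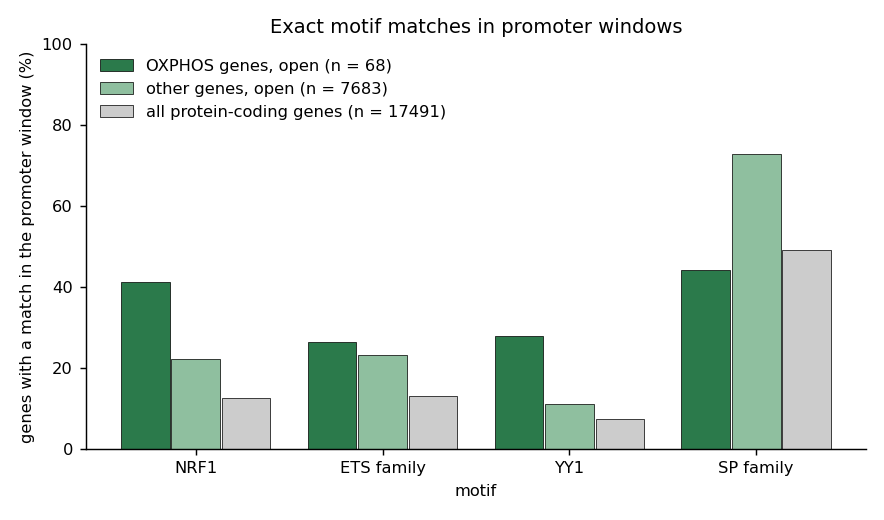
Share of genes (vertical axis, percent) whose promoter window of 250 bases before to 50 after the start holds an exact match to each of 4 motifs (horizontal axis), for 68 oxidative phosphorylation genes with an open promoter, 7683 other genes with an open promoter and all 17491 genes. NRF1 and YY1 bars of the oxidative phosphorylation genes (41.2% and 27.9%) stand above both other sets, and their SP family bar (44.1%) stands below both.

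The motifs were spread unevenly over the complexes. NRF1 matched in 9 of 13 open promoters of complex V and in 9 of 32 of complex I, in 3 of 5 of complex III, in 2 of 3 of complex II, and in 1 of 8 of complex IV. YY1 matched in 12 of 32 promoters of complex I, 4 of 13 of complex V and 1 of 8 of complex IV, and in none of those of complexes II and III. With few genes in complexes II to IV, these counts describe the genes and were not compared by a test.

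A second feature was the nearness of other genes. The rule did not ask for it but favours it, since a region near several genes has more chances to meet the rule. Member regions were also wider, which reaches more gene ends. How much of the differences below comes from this was not tested. Of the 112 members, 59 (52.7%) also lay within 1 kb of an end of another protein-coding gene, against 16.6% of other gene-end regions. Among regions that cover a start site the shares were 47.2% of 72 members and 20.1% of 6122 other regions. Atp5j shares a wide and a short region with Gabpa, the DNA-binding subunit of the ETS factor GABP. Ndufb5 likewise shares a wide and a short one with Mrpl47, a protein of the mitochondrial ribosome. Ndufs8 lay next to Aldh3b1, Ndufv3 next to Wdr4, Uqcrq next to Gdf9, Ndufaf8 next to Tepsin, Sdha next to Ccdc127 and Ndufb1 next to Cpsf2. Counts at such a region cannot be assigned to one of the genes, and the other 53 members, at 43 genes, had no other gene end within 1 kb.

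Member regions were wider than other gene-end regions but about as open per base. Their median width was 370 bases, against 297. Their median level in patches was 102 nuclear CPM per kb, against 107 at other gene-end regions and 92.7 over all nuclear regions. Of the members, 80 (71.4%) had counts in all 10 patch libraries, against 63.5% of other gene-end regions. Members that cover a start site stood at 113 per kb and other regions of that kind at 129.5.

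Levels ranged widely within the complexes, while the medians of the complexes lay close together. On the scale of normalized CPM (from all counts, with TMM factors within a capture size) per kb, averaged over patches, the medians were 80.4 for complex I, 90.6 for II, 77.7 for III, 85.6 for IV, 69.6 for V and 82.8 for the assembly factors. The most open region was that of Uqcrq, a small subunit of complex III, with 226 normalized CPM per kb. It was followed by Ndufaf8, a complex I assembly factor (214), and Ndufv3, a complex I flavoprotein subunit (189). In complex II the most open regions were at Sdhb, the iron-sulfur subunit (139), and Sdha (102), in complex IV at Cox6a1 (136) and Cox4i1 (120.5), and in complex V at Atp5b, the catalytic beta subunit (169.7), and Atp5j (150.4). Cycs stood at 135 and the least open member, at Ndufaf7, at 12.3. The most open members of complex I, III and the assembly factors all share their region with another gene.

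The first comparison asked whether these genes differ in accessibility between B and T cells, and in patches none of the 109 tested members did at an adjusted p of 0.05. Over all 25712 tested regions the same edgeR quasi-likelihood test called 583, which is 2.27%, and over other gene-end regions it called 78 (0.655%). At this share the count of 0 among 109 members is near what other gene-end regions show. At an unadjusted p under 0.05 there were 2 members (1.83%), against 12.7% of all regions and 5.58% of other gene-end regions, and DESeq2 called 0 members and gave 4 at an unadjusted p under 0.05. The smallest adjusted p of a member was 0.302.

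The fold changes of the members lay close around 0. Their median log2 fold change, B over T, was -0.08, beside -0.03 over all regions and -0.05 over other gene-end regions, with quartiles of the members at -0.44 and 0.22, and 46 of 109 lay above 0. Of the members, 99 (90.8%) had fold changes within 2-fold, against 84.5% of other gene-end regions and 69.2% of all. The precision was limited, with a median standard error of 0.49 on the log2 scale. It was 0.61 at other gene-end regions and 0.83 over all regions, so the shares within 2-fold compare sets of unlike precision. Among regions that cover a start site the median standard error was 0.43 in both sets. There, 97.2% of members and 91.7% of other gene-end regions lay within 2-fold. The 95% interval of the fold change lay wholly within 2-fold for 27 members (24.8%) and within 4-fold for 75 (68.8%), so for the rest the interval includes a change of that size. Among other gene-end regions these shares were 20.3% and 57.2%. By complex the median log2 fold changes were -0.08 for I, -0.06 for II, -0.28 for III, -0.05 for IV, -0.09 for V and -0.12 for the assembly factors, and each of these had members on both sides of 0.

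**Figure D2:**
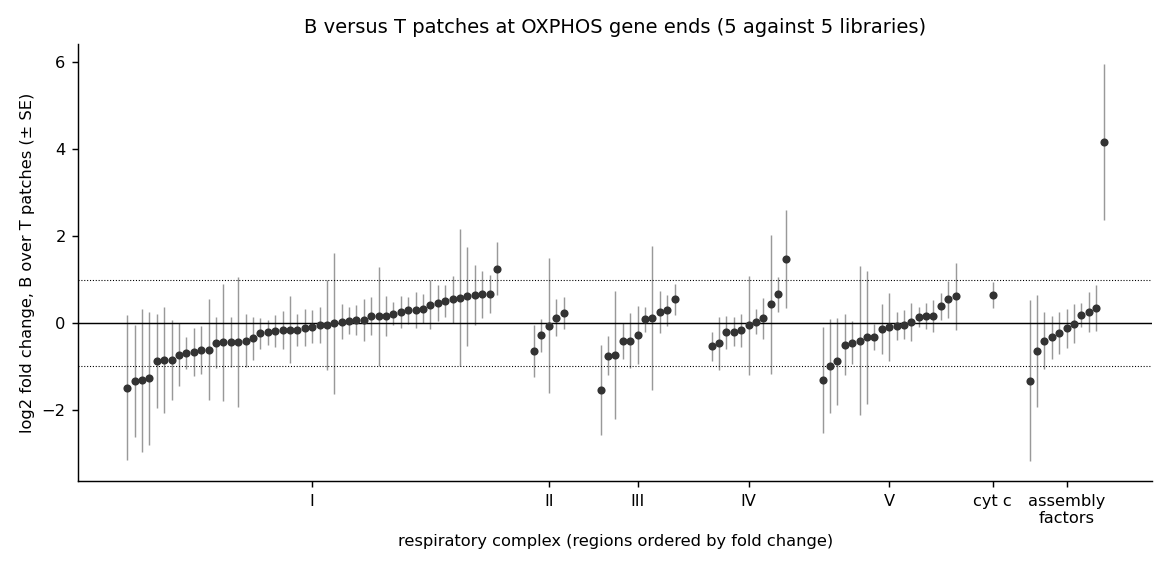
Log2 fold change of B over T patches (vertical axis, points, with bars of ± 1 SE) for the 109 tested member regions, grouped by respiratory complex and ordered by fold change (horizontal axis), with dotted lines at 2-fold. The points of complexes I to V and of the assembly factors straddle 0, and the only point of cytochrome c lies above it (0.65). Of the 109 points, 99 lie between the dotted lines, and the single point far above these lines is a thinly read region at Ndufaf2 (4.17).

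Cycs encodes cytochrome c, the mobile carrier between complexes III and IV, and its promoter is among those printed above. The region over its start (chr6:50566166-50566931, no other gene within 1 kb) had 130.1, 119.7, 112, 159 and 109 normalized CPM in B patches 1 to 5, and 78.6, 102, 91.4, 30.3 and 98.7 in T patches 1 to 5. All 5 B libraries lay above all 5 T libraries, with the lowest B value close to the highest T value. This holds on the scale of all counts with TMM factors: as a share of nuclear counts T library 2 (0.0147%) lay above B libraries 3 (0.0141%) and 5 (0.0135%), and the groups overlapped. The means were 126 ± 20.5 (SD, n = 5) and 80.1 ± 29.2 (SD, n = 5). The log2 fold change was 0.65 ± 0.30 (SE, 95% interval 0.03 to 1.28) with an adjusted p of 0.359, so it did not pass the test. On normalized CPM, Cycs was the only 1 of the 109 tested members (0.917%) whose B and T patches did not overlap, against 8.03% of all tested regions and 2.88% of other gene-end regions. At 100 nuclei its counts were 31, 25, 13 and 21 in B and 30, 70, 77 and 0 in T, and the groups overlapped.

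Uqcrq, the most open member, had 172, 97.6, 279, 268 and 239 normalized CPM in B patches and 206, 51.4, 194, 76.7 and 196 in T patches (chr11:53430654-53431442). The libraries numbered 2 were low in both groups and the groups overlapped. The log2 fold change was 0.54 ± 0.35 (SE), with an adjusted p of 0.627. Uqcrb, which encodes another small subunit of complex III, lay on the opposite side of 0. Its region (chr13:66904881-66905403, shared with the predicted gene Gm10767) had 28.1, 30.1, 17.8, 14.4 and 37.5 normalized CPM in B and 33.8, 68.7, 24.2, 51.9 and 37.4 in T patches, a log2 fold change of -0.75 ± 0.44 (SE) with an adjusted p of 0.552. Subunits of 1 complex thus gave fold changes of opposite sign, and neither passed.

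In complex I, Ndufc2, a supernumerary subunit, had 27.02, 47.4, 24.5, 37.4 and 15.9 normalized CPM in B patches and 24.4, 2.81, 12.6, 10.0 and 14.0 in T patches (chr7:97399840-97400121). There 4 of 5 B libraries lay above all T libraries, 1 of them narrowly, and the groups overlapped. Its log2 fold change was 1.24 ± 0.61 (SE), adjusted p 0.405. Ndufa13, whose product is an accessory subunit, had a region more than 1 kb upstream of its start site in the promoter table (chr8:69903143-69903434). This region lay next to Tssk6, with 21.8, 23.9, 68.8, 31.3 and 49.1 in B and 75.3, 53.9, 69.8, 54.6 and 60.7 in T patches. At that region 4 of 5 B libraries lay below all T libraries, and the log2 fold change was -0.69 ± 0.37 (SE), adjusted p 0.482. At the wider regions of Ndufb5 and Atp5j, whose promoters are printed above, the values lay close together. The Ndufb5 region at its start had means of 94.0 ± 10.3 in B and 80.8 ± 16.2 in T patches (SD, n = 5 each), and the wider Atp5j region, shared with Gabpa, 161 ± 26.99 and 145 ± 22.1. The 95% interval of the log2 fold change was -0.32 to 0.76 at this Ndufb5 region and -0.34 to 0.63 at this Atp5j region, both within 2-fold. The short regions of both genes were thinly read and lay below 0. Their log2 fold changes were -1.34 ± 1.28 (SE, adjusted p 0.817) at Ndufb5 and -0.99 ± 1.07 (SE, adjusted p 0.85) at Atp5j.

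**Figure D3:**
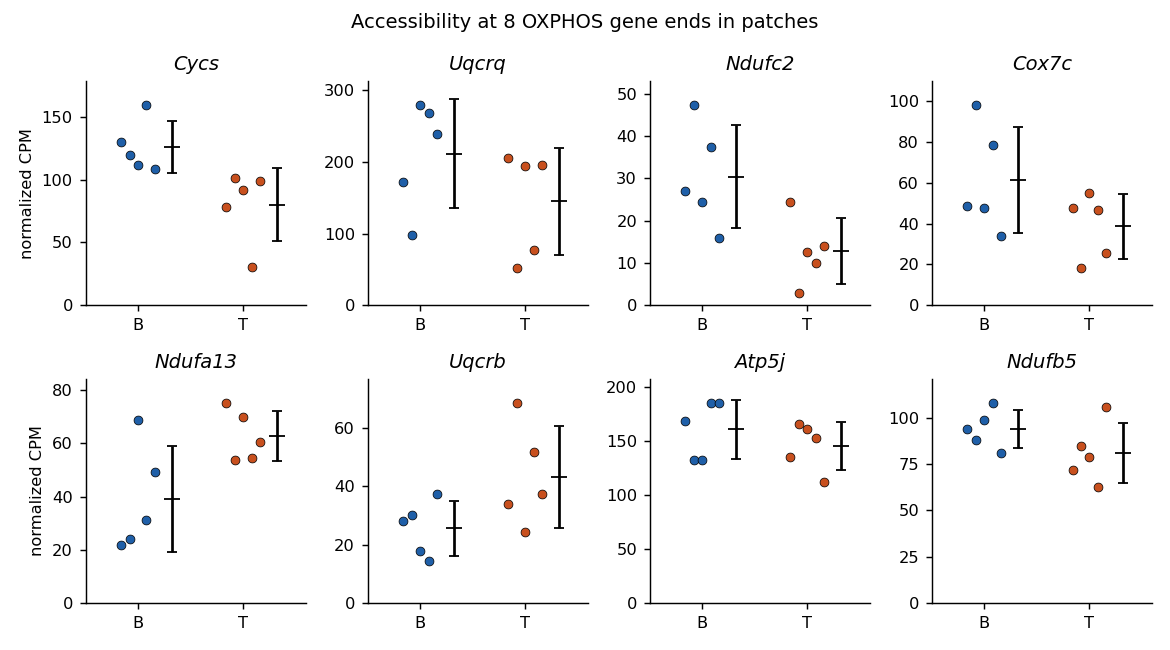
Normalized CPM (vertical axis, from 0) at 8 member regions in the 5 B and 5 T patch libraries (horizontal axis, 1 point per library, with mean and SD beside the points). On this scale the points of B and T do not overlap at Cycs, as they do at the other regions (as a share of nuclear counts they overlap at Cycs too), and Atp5j and Ndufb5 show the closest means.

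In complex IV, Cox7c, a small structural subunit, had 48.8, 98.0, 47.5, 78.2 and 34.0 normalized CPM in B patches and 47.8, 18.1, 55.1, 46.6 and 25.8 in T patches (chr13:86046375-86046959). The groups overlapped, and the log2 fold change was 0.66 ± 0.40 (SE), adjusted p 0.5702. Cox7a2l had 57.0, 38.2, 33.0, 42.6 and 49.3 in B and 50.6, 77.2, 54.2, 95.7 and 42.9 in T patches, and a log2 fold change of -0.54 ± 0.34 (SE), adjusted p 0.597. In complex II, Sdha had 82.7 ± 44.9 in B and 70.7 ± 33.0 in T patches and Sdhb 50.1 ± 21.4 and 61.0 ± 16.3 (SD, n = 5 each), with the groups overlapping at both. In complex V, Atp5b had 114 ± 29.9 and 102 ± 38.3 (SD, n = 5 each). The remaining members with the largest differences were thinly read. The largest fold change of all, at a region of 110 bases near the start of Ndufaf2 and of its neighbour Ercc8, rested on counts of 0, 20, 10, 84 and 16 in B and 0, 0, 4, 4 and 0 in T patches. Its log2 fold change was 4.17 ± 1.79 (SE), adjusted p 0.302, and most of the counts came from B library 4. With the chrM share as a covariate its log2 fold change was 0.67, with an adjusted p of 0.999.

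The captures of 100 nuclei asked the same question at lower depth, and there too 0 of 109 members were called. The test called 4 of all 25712 regions (0.0156%), each of them on chrM and higher in B. At an unadjusted p under 0.05 there were 3 members (2.75%), against 5.5% of all regions, and DESeq2 gave 6 members at that level and called 0. The 3 were Ndufc1 of complex I, Atp5g3, which encodes the c subunit of the ATP synthase ring, and Cox7c, and each had counts in B libraries only. Atp5g3 had 44, 20, 42 and 31 counts in B libraries 1 to 4 and 0 in all 4 T libraries. Ndufc1 had 0, 71, 2 and 53 in B and Cox7c 0, 1, 16 and 51, with 0 in all T libraries. In patches Atp5g3 had 39.5 ± 19.5 normalized CPM in B, beside 38.7 ± 9.75 in T (SD, n = 5 each), and the groups overlapped. Groups did not overlap at 2 members, Atp5g3 and Cox7a2l, both higher in B, or 1.83%, against 1.18% of all regions.

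Members were thinly covered at 100 nuclei. In T library 4, the shallowest with 241786 nuclear counts, 17 of the 112 members (15.2%) had a count, and in T library 3, with 411994 nuclear counts, 31 of them (27.7%), while the other 6 libraries of 100 nuclei had counts at 43 to 64 members. The 4 B libraries among these held 327099 to 400144 nuclear counts, fewer than T library 3, so depth alone does not order the libraries. Other gene-end regions were read at 15.7% and 19.3% in those T libraries. Of the members, 4 had counts in all 8 libraries (Ndufaf8, Ndufs8, Atp5a1 and Atp5j) and 17 in none. The median standard error was 2.99 on the log2 scale, and no member's 95% interval lay within 4-fold. In T library 4 complexes II and III and Cycs had no counts at all.

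**Figure D4:**
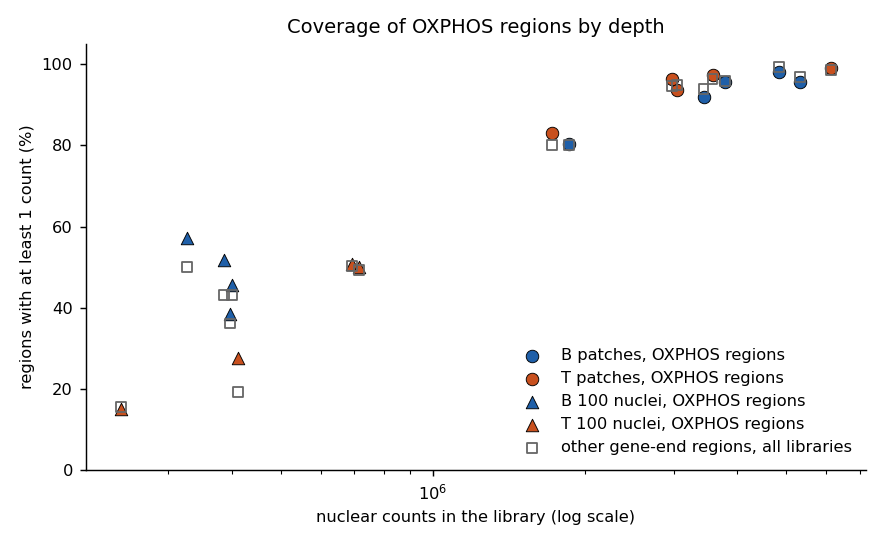
Share of regions with at least 1 count (vertical axis, percent) against the nuclear counts of the library (horizontal axis, log scale), for the 112 member regions (filled points) and other gene-end regions (open squares) in each of the 18 libraries. Patches lie between 80.4% and 99.1% of members and captures of 100 nuclei between 15.2% and 57.1%, with members close to other gene-end regions at most depths.

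Whether the difference between B and T depended on the size of the capture was tested by an interaction over all 18 libraries. It called 0 of 25712 regions (0%) and 0 members, with 19 members (17.4%) at an unadjusted p under 0.05, against 27.1% of all regions, and a smallest adjusted p of 0.0725. Without T library 1 of the 100-nuclei captures it called 419 regions and 5 members, Ndufs1, Atp5g3, Ndufc1, Sdhb and Ndufaf3, each with a lower B over T fold change in patches than at 100 nuclei, and without T library 2 it called 97 regions.

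The nuclear members were then set against mitochondrial DNA, which carries the other genes of the same complexes. The share of counts on chrM, which reflects tagged mitochondrial DNA and not its transcription, was 18.8, 31.3, 31.0, 33.6 and 23.5% in B patches 1 to 5 and 16.1, 21.5, 16.4, 23.1 and 19.97% in T patches. The mean was 27.6 ± 6.24% in B, beside 19.4 ± 3.09% in T (SD, n = 5 each), and 4 of 5 B libraries lay above all T libraries. The difference of 8.23 percentage points had an exact two-sided permutation p of 0.0476, or 0.0952 after adjustment over the 2 capture sizes, so it did not pass. This test did not pair libraries by number. At each number the B patch share lay above the T patch share, and a sign-flip test paired by number did not pass at an adjusted p of 0.05 either. Without B library 1, whose share was the lowest of the B patches, the adjusted p was 0.0317 with a difference of 10.4 points. At 100 nuclei the shares were 29.4, 44.5, 38.8 and 45.8% in B and 31.8, 33.6, 31.7 and 24.3% in T, a difference of 9.25 points with an exact permutation p of 0.114. In the same libraries the edgeR test by region called the 4 chrM regions higher in B, while DESeq2 called 0 regions. The smallest p that the unpaired permutation test can give is 0.00794 with 5 against 5 and 0.0286 with 4 against 4.

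Next to this stood the share of nuclear counts in the 112 members. In B patches it was 0.544, 0.554, 0.584, 0.612 and 0.614% and in T patches 0.586, 0.542, 0.618, 0.5302 and 0.572%. The means were 0.582 ± 0.0322% and 0.569 ± 0.0350% (SD, n = 5 each), a difference of 0.0121 percentage points that is smaller than the spread within either group. At 100 nuclei the values were 0.641, 0.651, 0.562 and 0.556% in B and 0.522, 0.597, 0.751 and 0.527% in T, with T library 3, one of the thinly read libraries, the highest, and means of 0.602 ± 0.0507% and 0.599 ± 0.107% (SD, n = 4 each). As a result there were 42.5 to 82.7 chrM counts per member count in B patches and 31.8 to 56.6 in T patches, ranges that overlap and that follow the chrM counts. These shares carry no test, since the members were chosen as a set.

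**Figure D5:**
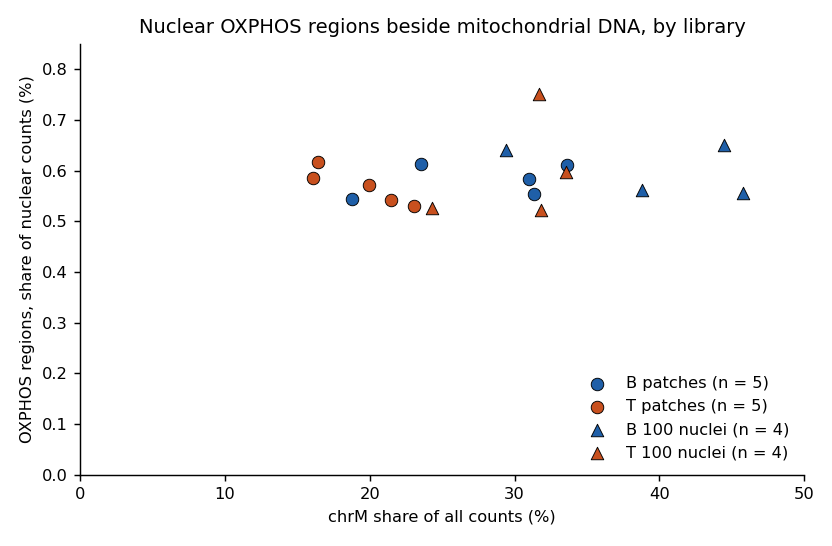
Share of nuclear counts in the 112 member regions (vertical axis, percent, from 0) against the chrM share of all counts (horizontal axis, percent) in 18 libraries. Patches (circles) lie in a band from 0.530% to 0.618% while their chrM share runs from 16.1% to 33.6%, and 1 T library of 100 nuclei lies above the others at 0.751%.

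Split by complex, the shares of nuclear counts in patches, B before T, were 0.252 ± 0.0141% and 0.246 ± 0.0224% for complex I, 0.0278 ± 0.00636% and 0.0289 ± 0.00485% for complex II, and 0.0634 ± 0.00886% and 0.0606 ± 0.00594% for complex III (SD, n = 5 each). Complex IV took 0.0565 ± 0.00709% and 0.0589 ± 0.00801% and complex V 0.108 ± 0.00835% and 0.108 ± 0.00536%. For each of these 5 complexes the B and T means differed by less than the spread between libraries. So did those of the assembly factors, at 0.0578 ± 0.00594% and 0.05645 ± 0.01017%. The single Cycs region took 0.0164 ± 0.00284% and 0.0105 ± 0.00398%. Its means differed by more than the SD of either group, the groups overlapped, and the difference in share was not tested.

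Region by region, the slope of accessibility on the chrM share was fitted with the cell type as a term and with chrM left out of the library size. In patches it called 0 of 25708 nuclear regions (0%) and 0 members. At an unadjusted p under 0.05 there were 2 members (1.83%), near the 1.44% of all regions. These were Atp5g2, another gene for the c subunit, with a slope of -0.81 ± 0.33 (SE) on the log2 scale per 10 percentage points of chrM share, and Uqcr11 of complex III with -1.61 ± 0.68 (SE), both with an adjusted p of 1. Atp5g2 had 109.9, 41.5, 52.9, 61.3 and 81.4 normalized CPM in B and 87.2, 37.0, 95.1, 61.6 and 76.9 in T patches, and its highest B value was in the B library with the lowest chrM share. The median slope was -0.08 over members and -0.08 over all regions, and with the log10 nuclear depth as a further term both turned positive, to 0.17 and 0.13. At 100 nuclei 0 of 25708 regions (0%) and 0 members were called, 2 members (Atp5c1 and Uqcrfs1) had an unadjusted p under 0.05, or 1.83% beside 2.4% of all regions, and the median slope was 0.33 over members and 0.62 over all regions. Without T library 4 both of these were 0, and without B library 1 they were 1.97 and 2.204.

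Other nuclear genes of mitochondrial energy metabolism were counted in 10 lists, and in patches 0 regions were called in each, where 2.27% of all regions and 0.655% of other gene-end regions were called. With 5 to 101 tested regions a list, a count of 0 is near the share of other gene-end regions for most lists. In the mitochondrial ribosome list 0 of 101 tested regions were called, with 1 above 0 and 2 below at an unadjusted p under 0.05 and a median log2 fold change of -0.13. The TCA cycle list had 0 of 17 called with a median of -0.12, the import machinery 0 of 32 with 0.03, and the assembly factors of complex IV 0 of 29 with 0.01. The medians farthest from 0 were -0.41 over the 7 regions of further complex III genes and -0.21 over the 13 of further complex I assembly factors. Among genes for the upkeep and transcription of mitochondrial DNA, 0 of 16 were called. The smallest p there was at Polg2, the accessory subunit of the mitochondrial DNA polymerase, with 37.1 ± 18.6 normalized CPM in B and 86.5 ± 30.2 in T patches (SD, n = 5 each) and a log2 fold change of -1.22 ± 0.40 (SE), adjusted p 0.137. Among the nuclear regulators, of which 0 of 17 regions were called, the Nrf1 gene itself had 61.7 ± 6.38 and 84.5 ± 10.3 (SD, n = 5 each) and a log2 fold change of -0.45 ± 0.27 (SE), adjusted p 0.554. The regulator list includes the regions that Gabpa shares with Atp5j, and the mitochondrial ribosome list those that Mrpl47 shares with Ndufb5.

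Few regions lay near the limit of 1 kb. The members farthest from an end lay 826 bases from Atp5g3, 807 from Ndufa7 and 781 from Ndufa13, and 104 of the 112 lay within 500 bases. By the promoter table, this Atp5g3 region nevertheless covers a start site of the gene. The nearest regions outside lay 1036 bases from Cox6a2, 1058 from Uqcrh and 1094 from Atp5b, with means of 7.84 to 39.4 nuclear CPM in the 2 patch groups. A region of 786 bases that lay 1451 from Ndufv2 was well read, with 157 ± 22.3 in B and 163 ± 28.4 in T patches (SD, n = 5 each).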

How the data were processed

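Raw counts per region for 18 libraries were deposited by the authors as 1 table of 27396 regions on genome build mm10, without normalization. Per the submitters' processing notes, Trimmomatic 0.36, Bowtie2 2.4.5, Picard, SAMtools 1.14 and MACS2 2.2.7.1 were among the tools used. Their roles, the treatment of duplicate reads, any shift for the transposase and whether starts count from 0 are stated in no source used here. No molecular identifiers are stated, so counts are not independent molecules. Columns were matched to libraries by name. Total counts ran from 319481 to 7343204 per library.

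Gene ends and start sites came from RefSeq tables of GRCm38.p6, which shares its coordinates with mm10. The whole table was fitted with edgeR 4.0.16 (TMM, quasi-likelihood F-test, filterByExpr with a minimum count of 10, which kept 25712 regions) and Benjamini-Hochberg adjustment at 0.05, each capture size on its own groups. Standard errors were derived from the fold change and its F. Shares of chrM were compared by exact permutation tests. The test was also tried on simulated counts, with changes far larger than the fold changes of most members and only at better-read regions. That trial does not show how well smaller changes are found. The members, lists and tests were chosen with earlier results of these data known. Named regions follow a rule by smallest p, most extreme fold change, highest level per complex and slope, and a part of them is printed. Neighbouring genes, genes without a region, the printed promoters, the members read in every library of 100 nuclei and the regions near 1 kb fall outside this rule. They were named after their values were seen. Results were recomputed with DESeq2 1.42.0, with library size alone, RLE factors or no filter, without chrM rows, jointly over 18 libraries, with blocks by replicate number, with the chrM share as a covariate, at 500 bases and 5 kb, and with each library left out. Region by region, same-numbered B and T libraries did not deviate together, so no pairing was used. Library-wide values such as the chrM share and depth were not part of this check.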

Additional observations from a re-analysis of the deposited data

How the results depend on the processing

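Direction under the alternatives was followed for the difference in chrM share at each capture size and for the members with the smallest p in patches. None of these changed its direction. The other results with a test are counts of calls, for which direction was not followed. The untested difference in the share of nuclear counts in members, B minus T, was 0.0121 points in patches, with 0.0023 to 0.0241 when 1 library was left out, and 0.00325 at 100 nuclei, with -0.0225 to 0.0538, so its sign there depends on single libraries. Sets of other size gave 0.0139 and 0.00509 at 500 bases and 0.00496 and -0.0492 at 5 kb. The median slope on the chrM share in patches turned positive with depth as a further term. In patches 583 regions were called, against 2102 with DESeq2, 215 with the replicate number as a block, 24 with the chrM share as a covariate, 0 in a joint fit of all 18 libraries, 1156 without both patch libraries numbered 2 (chosen after seeing the data), and 259 to 673 with 1 library left out, the lowest without B library 1. Each library but the 2 numbered 2 moved this count by over 1.5 times when left out. Member calls in patches stayed at 0 under each of these but 1: without both libraries numbered 2, Ndufb1, a complex I subunit, was called, with a log2 fold change of 1.33 and an adjusted p of 0.0166. Scaling by library size alone gave 594 regions, 232 above 0 and 362 below, in place of 314 and 269, and moved the median of all regions to -0.19 and of members to -0.27.

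At 100 nuclei 4 regions were called, against 0 with DESeq2, 0 with chrM rows left out, 0 with the replicate block, 0 with the covariate, 6955 in the joint fit, which assumes that both capture sizes vary alike, and 2 to 4 with 1 library left out (2 without B library 2 or 4). The joint fit called 16 members there. The interaction gave 0 to 419 regions and 0 to 5 members with 1 library left out, with 419 and 97 regions without T library 1 or 2 of the 100-nuclei captures and 7 to 11 when B library 2, B library 3, T library 3 and T library 4 were left out in turn. The difference in chrM share ran from 6.73 to 10.4 points in patches and from 7.20 to 12.7 at 100 nuclei with 1 library left out. The replicate numbers are shared by the groups. Region by region, same-numbered deviations correlated at -0.01 to 0.03. Of the 9 numbers, only number 2 in each capture size correlated best with itself. Library-wide values were not part of this check. The patch libraries numbered 2 were the shallowest of both groups, with 1863884 (B) and 1722193 (T) nuclear counts. The slope on the chrM share called 0 regions in every alternative.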

Other observations

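Members without another gene end within 1 kb, 53 regions at 43 genes, held 0.227 ± 0.0221% of nuclear counts over the 5 B patches, beside 0.226 ± 0.0114% over the 5 T patches (mean ± SD). At 100 nuclei their share was 0.245 ± 0.0402% over the 4 B libraries, beside 0.162 ± 0.0570% over the 4 T libraries, with T values from 0.105% to 0.231% and B values from 0.219% to 0.304%, so the groups overlapped. The difference of means, 0.0839 points, is larger than the SD of either group. This split was chosen after seeing the data, and its difference was not tested.

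The joint fit of all 18 libraries called 16 members at 100 nuclei that the fit of the 8 libraries alone did not. Over all regions that fit called 6955 of 25712, 4625 higher and 2330 lower in B, so 16 of 109 is a smaller share than that of all regions. Of the 16 members, 15 lay higher in B, among them Atp5g3, Ndufc1 and Cox7c, and Ndufa1 lay lower.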
